A study of Mus musculus with 6 samples.

Results

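Type I interferon-stimulated genes, the transcripts that cells switch on when interferon alpha or beta reaches them, were followed in activated mouse CD4 T cells with and without the miR-17-92 microRNA cluster. The list held 48 genes named by symbol. Of these, 41 were read by at least 1 probe set that the platform annotation gives to a single symbol, and they are the members described here, out of 12393 genes on the arrays. The other 7 were left out: Isg15 and Ifi203 lay only in probe sets shared with other symbols, and Ddx58, Xaf1, Ifi44, Ly6e and Herc6 were not analysed here. Where several probe sets read a member (13 members), the brightest one was taken.

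The arrays measured mRNA of CD4+CD25- T cells, helper T cells sorted free of cells bearing the IL-2 receptor alpha chain, which were activated through CD3 and CD28, transduced with a retrovirus and harvested after 5 days. The 6 samples formed 3 groups of 2 that the labels call biological replicates, without saying whether each came from its own mouse. The wild-type mock group was cells of WT B6 mice given the empty vector. Cells of miR-17-92f/f CD4-cre+ B6 mice, in which Cre recombinase driven by CD4 sequences removes the floxed cluster in the T cell lineage, received the empty vector in one group (deficient mock) and a vector overexpressing miR-17 in the other (deficient miR-17). Both deficient groups therefore share the deletion and the Cre, and the labels list neither for the wild-type mice. Neither the loss of the cluster nor the return of miR-17 was checked on these arrays. Culture was in 10% serum and 7% CO2 for all groups, and 1 array was hybridised per sample.

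Interferons alpha and beta bind a receptor of 2 chains, IFNAR1 and IFNAR2, whose kinases phosphorylate STAT2. With IRF9 it forms part of a complex that binds a DNA element called the ISRE and turns on a large set of genes that sense foreign nucleic acids, degrade or sequester viral RNA, block entry and budding, and damp the signal again. In T cells the response is also known to shape survival, proliferation and helper fate. The cluster encodes several microRNAs, short RNAs that repress transcripts pairing with their seed, and only miR-17 was put back. Its mature sequence and those of the 5 other microRNAs are shown to make clear what the deficient miR-17 cells regained. Capitals mark the seed, bases 2 to 8 from the 5′ end, and all 6 come from RefSeq, build GRCm38.p6, plus strand of chromosome 14, between chr14:115043684-115043706 for miR-17-5p and chr14:115044476-115044496 for miR-92a-3p.
miR-17-5p: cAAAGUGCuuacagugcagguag
miR-18a-5p: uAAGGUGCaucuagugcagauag
miR-19a-3p: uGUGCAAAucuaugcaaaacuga
miR-20a-5p: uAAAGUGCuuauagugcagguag
miR-19b-3p: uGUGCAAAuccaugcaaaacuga
miR-92a-3p: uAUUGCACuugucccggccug
miR-17-5p and miR-20a-5p share the seed AAAGUGC, miR-19a-3p and miR-19b-3p share GUGCAAA, and miR-18a-5p (AAGGUGC) and miR-92a-3p (AUUGCAC) each have their own.

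Values are log2 intensities as deposited, so a difference of 1 is a 2-fold change, and differences are given as log2 ± SE from limma, with n = 2 arrays per group. A gene was called at a Benjamini-Hochberg adjusted p under 0.05 over all 12393 genes. An exact permutation test of 2 arrays against 2 cannot go below p = 0.333. Array medians lay between 5.71 and 5.76, and readings below the lower quartile of an array (3.99 to 4.17) are treated as near background. Defining T cell markers matched the label: the 9 measured CD4 T cell genes averaged 10.32 to 10.67 on the 6 arrays. In bulk RNA, fewer cells with a transcript and less transcript per cell cannot be told apart.

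Most members read higher in T cells lacking the cluster. In deficient mock against wild-type mock cells, 35 of 41 members lay above 0, with a median difference of 0.88 against -0.03 over all genes. By limma's adjusted p, 13 members rose and 1 fell, which is 31.7% and 2.44% of the members beside 3.74% and 2.79% of all genes. Both deficient mock arrays lay above both wild-type mock arrays for 34 members (82.9%, beside 25.1% of all genes), and below them for 5 (12.2%, beside 24.8%). At limma's unadjusted p under 0.05, 30 members were higher (73.2%, beside 12.8%) and 3 lower (7.32%, beside 8.76%). The size of the difference was not the same in replicates 1 and 2. Deficient mock replicate 1 exceeded wild-type mock replicate 1 by a median of 0.42, and deficient mock replicate 2 exceeded wild-type mock replicate 2 by a median of 1.20. The map of all members by array shows this as a paler and a deeper deficient column in each vector group.

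**Figure D1:**
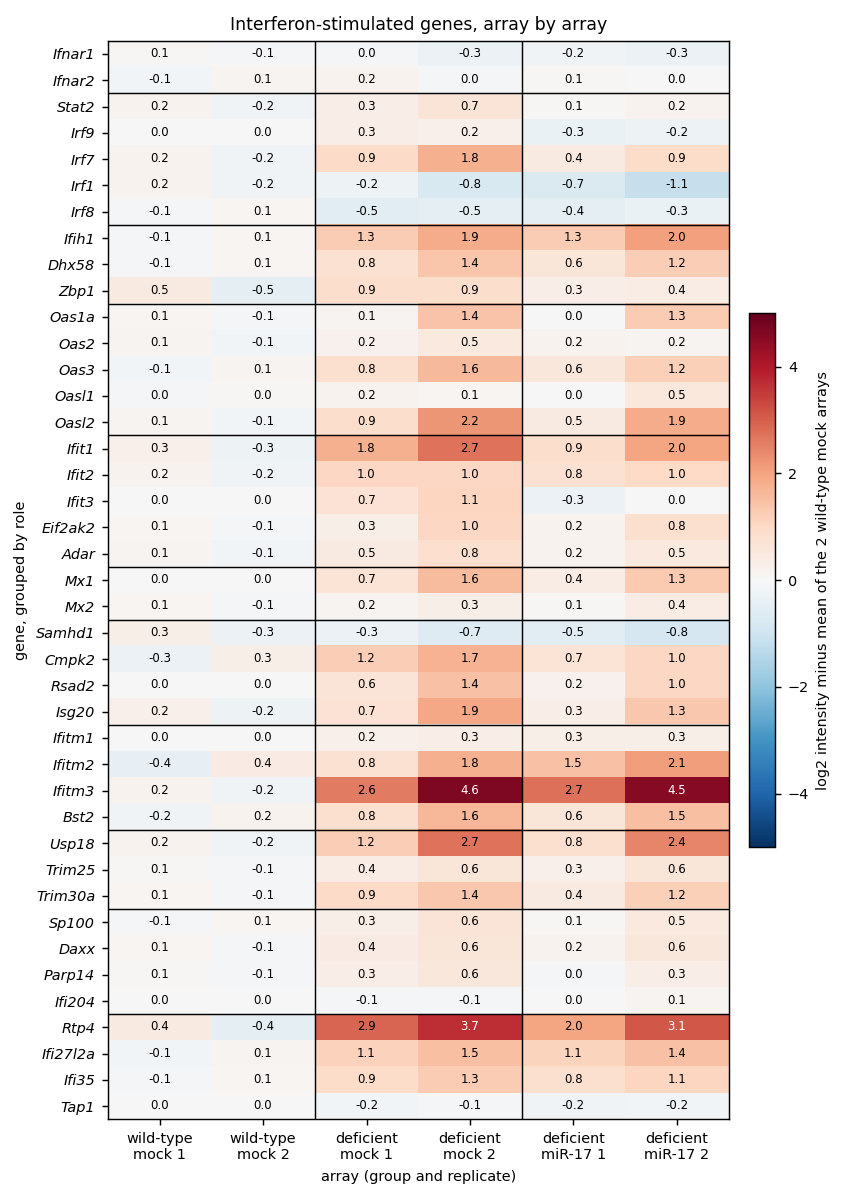
Log2 intensity of the 41 members (rows, in blocks by role) on the 6 arrays (columns), each minus the mean of the 2 wild-type mock arrays, with the value printed in each cell. Red is higher and blue is lower than wild-type mock: both Ifnar rows are near 0, Rtp4 and Ifitm3 are the deepest red, and Irf1, Irf8 and Samhd1 are blue on the deficient arrays.

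The receptor genes did not pass in any comparison. Ifnar1, which encodes the chain bound by the kinase TYK2, read 7.38 and 7.25 in wild-type mock, 7.27 and 7.03 in deficient mock, and 7.16 and 7.01 in deficient miR-17 cells. The deficient mock values overlapped those of wild-type mock (-0.17 ± 0.13, limma adjusted p = 0.558). Ifnar2, the chain that binds JAK1, read 7.62 and 7.90, then 7.95 and 7.72, then 7.83 and 7.79, with all 3 groups overlapping. Its difference in the first pair of groups was 0.08 ± 0.14 (limma adjusted p = 0.807).

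The 5 transcription factor genes did not move together. Irf7, the factor that amplifies interferon production and is itself induced, read 6.89 and 6.56 in wild-type mock, 7.68 and 8.51 in deficient mock, and 7.16 and 7.66 in deficient miR-17 cells. The 3 groups did not overlap, with wild-type mock lowest, deficient miR-17 between and deficient mock highest. Irf7 rose in deficient mock cells by 1.36 ± 0.28 (limma adjusted p = 0.0324). Stat2, a subunit of the ISRE-binding complex, read 6.87 and 6.55, then 7.04 and 7.36, without a call (0.49 ± 0.17, limma adjusted p = 0.132). Irf9, the DNA-binding subunit, read 8.27 and 8.21, then 8.56 and 8.49, and did not pass either (0.28 ± 0.10, limma adjusted p = 0.155). In both cases the deficient mock arrays lay above the wild-type mock arrays.

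The factors better known from the response to interferon gamma read lower. Irf8, a regulator of myeloid and lymphoid differentiation, read 8.13 and 8.32 in wild-type mock and 7.69 and 7.74 in deficient mock cells, and it fell by 0.51 on the log2 scale (SE 0.12, limma adjusted p = 0.0429). That call ended when any 1 of the 6 arrays was left out, with differences of -0.60 to -0.41 without 1 of the 4 arrays compared. Irf1, an early activator of antigen processing and other targets, read 9.95 and 9.59 in wild-type mock, 9.53 and 9.01 in deficient mock, and 9.03 and 8.62 in deficient miR-17 cells. It did not pass in deficient mock cells (-0.50 ± 0.21, limma adjusted p = 0.220), although those arrays lay below the wild-type mock arrays. Tap1, the peptide transporter of class I antigen processing, differed by -0.12 ± 0.08 (limma adjusted p = 0.463).

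Among the 3 measured sensors of foreign nucleic acid, 2 rose. Ifih1 encodes MDA5, which detects long double-stranded RNA. It read 6.92 and 7.16 in wild-type mock and 8.32 and 8.89 in deficient mock cells, an increase of 1.57 ± 0.27 (limma adjusted p = 0.0216). Dhx58 encodes LGP2, a modulator of MDA5 and RIG-I. It read 6.19 and 6.35, then 7.04 and 7.64, an increase of 1.07 ± 0.25 (limma adjusted p = 0.0493). Its other probe sets, both dimmer, differed by 0.05 and 0.34, and with the mean of all 3 the difference was 0.49 and the call ended (limma adjusted p = 0.154). Zbp1, a sensor of Z-form nucleic acid that triggers cell death, read 8.41 and 7.50 in wild-type mock and 8.83 and 8.84 in deficient mock cells, without a call (0.88 ± 0.25, limma adjusted p = 0.0845).

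Of the 5 oligoadenylate synthetase genes, whose products activate the RNA-cleaving RNase L or resemble the enzymes that do, only Oas3 passed. Oas3 read 6.34 and 6.59 in wild-type mock and 7.28 and 8.10 in deficient mock cells (1.23 ± 0.29, limma adjusted p = 0.0499). With each gene on the mean of its probe sets, that call ended too (limma adjusted p = 0.0635). The deficient replicates of Oas1a lay far apart: it read 6.20 and 5.97 in wild-type mock against 6.23 and 7.53 in deficient mock cells, and deficient mock replicate 1 lay only just above the wild-type arrays (0.79 ± 0.49, limma adjusted p = 0.420). The other 3, Oas2, Oasl1 and Oasl2, differed by 0.34, 0.13 and 1.54. Both wild-type mock readings of Oasl2 (3.05 and 2.79) were near background, and its difference is therefore one of readings.

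RNA-binding and translation-blocking genes gave 3 increases among 5. The IFIT proteins bind RNA that lacks the host's cap modification. Ifit1 read 4.22 and 3.68 in wild-type mock, 1 of them near background, and 5.71 and 6.67 in deficient mock cells (2.24 ± 0.42, limma adjusted p = 0.0265). Ifit2 read 6.91 and 6.57, then 7.79 and 7.77, the closest pair of deficient readings among the called increases (1.04 ± 0.15, limma adjusted p = 0.0137). Ifit3, which has a close copy beside it in the mouse genome that could share its probes, read 4.52 and 4.47, then 5.22 and 5.56 (0.89 ± 0.17, limma adjusted p = 0.0261). In all 3 genes the deficient mock arrays lay above the wild-type mock arrays.

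The other members of that group are enzymes acting on double-stranded RNA, and neither passed. Eif2ak2 encodes PKR, the kinase that stops translation, and read 6.58 and 6.41, then 6.81 and 7.53 (0.67 ± 0.27, limma adjusted p = 0.198). Adar, which converts adenosine to inosine, read 7.16 and 6.90, then 7.50 and 7.86 (0.64 ± 0.17, limma adjusted p = 0.0731). The dynamin-like GTPase gene Mx1 read 5.11 and 5.07, then 5.78 and 6.69, without a call (1.14 ± 0.36, limma adjusted p = 0.115). Its relative Mx2 differed by 0.23 ± 0.16.

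Enzymes of nucleotides and RNA split. Cmpk2, a mitochondrial nucleotide kinase, read 3.80 and 4.37 in wild-type mock, the first near background, and 5.33 and 5.82 in deficient mock cells (1.49 ± 0.25, limma adjusted p = 0.0203). Its other probe set, only slightly dimmer, differed by 0.11, and the mean of both by 0.80 (limma adjusted p = 0.0331). Rsad2 encodes viperin, which makes a chain-terminating nucleotide, and Isg20 an exonuclease. Rsad2 read 5.75 and 5.79, then 6.41 and 7.22 (1.05 ± 0.32, limma adjusted p = 0.101). Isg20 read 7.78 and 7.28, then 8.26 and 9.46 (1.33 ± 0.43, limma adjusted p = 0.117). Neither passed, although both deficient mock arrays lay above wild type in each gene. Samhd1, which breaks down deoxynucleotides and restricts retroviruses, lay lower on both deficient mock arrays (11.05 and 10.68 against 11.61 and 11.06), without a call (-0.47 ± 0.20, limma adjusted p = 0.221).

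With all arrays, the largest difference of the list was in a gene of membrane defence, ahead of Rtp4. In replicates 1 alone Rtp4 was ahead (2.49 against 2.41), and also without deficient mock replicate 2 (2.92 against 2.59). Ifitm3 encodes a small membrane protein that blocks virus fusion in endosomes. It read 5.26 and 4.89 in wild-type mock, 7.67 and 9.73 in deficient mock, and 7.83 and 9.61 in deficient miR-17 cells. Every deficient array lay more than 2 log2 units above the wild-type arrays, and the 2 replicates of each deficient group lay almost as far from each other. The increase in deficient mock cells was 3.62 ± 0.71, or 12.3-fold (limma adjusted p = 0.0286), with 2.59 to 4.65 when 1 of the 4 arrays was left out.

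Its neighbours in the family differed less. Ifitm2 read 7.74 and 8.56, then 8.92 and 9.93, without a call (1.28 ± 0.38, limma adjusted p = 0.0940), and Ifitm1 differed by 0.30 ± 0.13 (limma adjusted p = 0.226). Bst2 encodes tetherin, which holds budding virions at the surface. It read 7.31 and 7.68, then 8.29 and 9.14, without a call (1.22 ± 0.34, limma adjusted p = 0.0818).

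In the ISG15 and ubiquitin system, Trim30a rose and Usp18 did not pass. Trim30a, a restraint on innate signalling, read 8.77 and 8.56, then 9.61 and 10.02 (1.15 ± 0.24, limma adjusted p = 0.0345). Usp18, the protease that removes ISG15 and blocks the IFNAR2 chain, had one of the larger differences but also a wide spread. It read 6.93 and 6.56 in wild-type mock and 7.99 and 9.48 in deficient mock cells (1.99 ± 0.58, limma adjusted p = 0.0915). Trim25, the ubiquitin ligase of RIG-I, differed by 0.47 ± 0.14 (limma adjusted p = 0.0985).

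Rtp4, an induced gene first known as a chaperone of cell-surface receptors, read 5.24 and 4.38 in wild-type mock, 7.73 and 8.49 in deficient mock, and 6.78 and 7.91 in deficient miR-17 cells. All deficient arrays lay above the wild-type arrays, and the increase in deficient mock cells was 3.30 ± 0.43, or 9.87-fold (limma adjusted p = 0.0106). A second, dim probe set of the gene differed by 0.11, and the mean of both by 1.71 (limma adjusted p = 0.0215). Ifi27l2a, a small interferon-induced membrane protein, read 10.53 and 10.78, then 11.80 and 12.15, the increase with the smallest p of the list (1.32 ± 0.15, limma adjusted p = 0.00706). Ifi35, whose protein binds the induced factor NMI, read 7.79 and 7.96, then 8.79 and 9.16 (1.10 ± 0.16, limma adjusted p = 0.0144).

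The 4 measured nuclear proteins held no call. Sp100 and Daxx, of the nuclear bodies that silence incoming DNA, differed by 0.46 ± 0.18 and 0.50 ± 0.15, and Parp14, an ADP-ribosyltransferase, by 0.46 ± 0.16. Ifi204, a DNA-binding protein of myeloid cells, was near background on all 6 arrays.

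**Figure D2:**
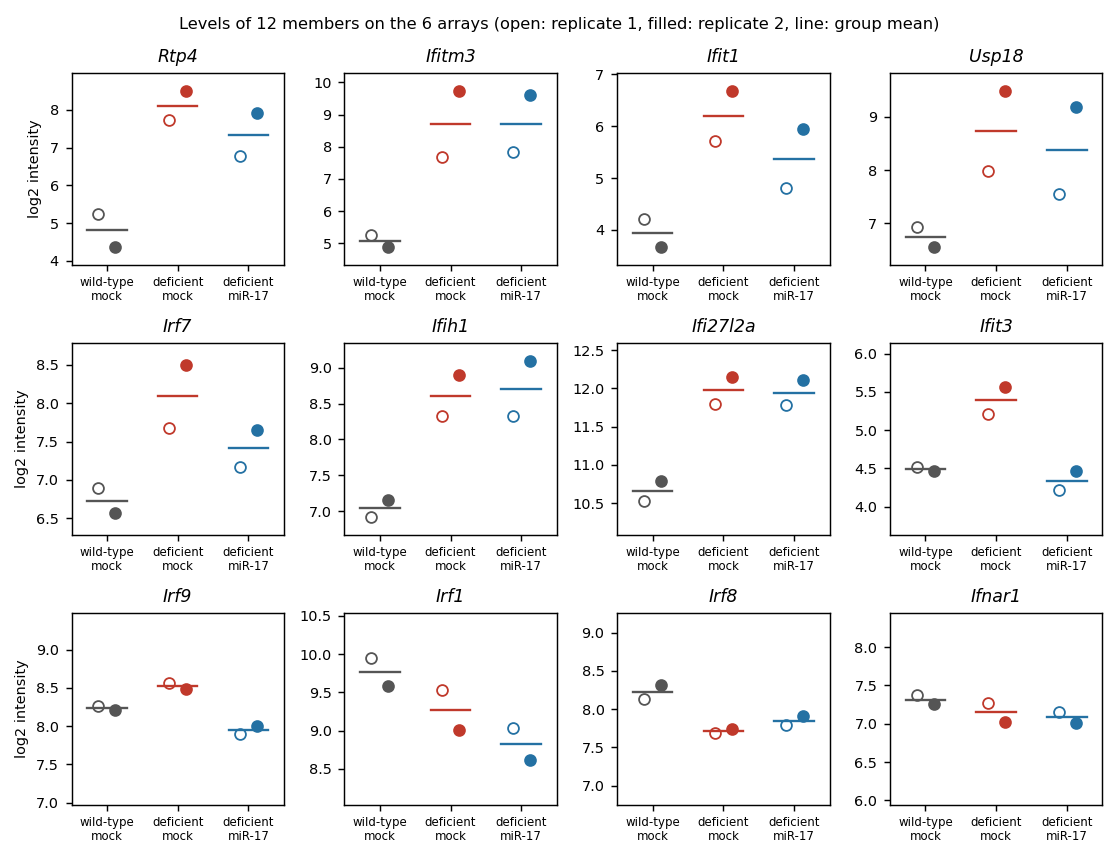
Log2 intensity of 12 members on each array, with replicate 1 open, replicate 2 filled and the group mean as a line, and a vertical range of its own in each panel. Rtp4, Ifitm3, Ifit1, Ifih1 and Ifi27l2a are higher in both deficient groups, Ifit3 is highest in deficient mock cells, Irf1 and Irf8 are lower, and Ifnar1 is nearly level.

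Which array was left out changed most of these calls. Of the 14 called members, Ifi27l2a kept its call in all 4 fits that dropped 1 of the arrays compared, and Rtp4 in 3 of them. Ifit2, Cmpk2 and Ifi35 were called in 2, and Irf7, Ifih1, Oas3, Ifit1, Ifit3 and Ifitm3 in 1. Irf8, Dhx58 and Trim30a were called in none. The number of members called higher was 4 without wild-type mock replicate 1, 5 without wild-type mock replicate 2, 10 without deficient mock replicate 1 and 1 without deficient mock replicate 2. Over all genes the share called higher fell too in these fits, to between 0.186% and 1.78%. The median difference over the members stayed between 0.64 and 1.04 when any 1 array was left out.

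The replicates of deficient cells differed from each other in these genes more than the wild-type replicates did. Deficient mock replicate 2 read above replicate 1 in 34 of 41 members, with a median of 0.36 against 0.00 over all genes. Deficient miR-17 replicate 2 read above replicate 1 in 35 of 41, with a median of 0.38 against -0.01. Wild-type mock replicate 2 read above replicate 1 in 14 of 41, with a median of -0.14 against -0.02. Replicate 2 exceeded replicate 1 by more than 1 log2 unit in 6 members in each deficient group and in 0 in wild-type mock cells, where 0.37%, 0.31% and 0.26% of all genes did so in deficient mock, deficient miR-17 and wild-type mock cells. Ifitm3, Usp18, Oas1a and Oasl2 were among the 6 in both deficient groups. No test was made of this difference in spread, since each group gives 1 difference between replicates.

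Control signals on the arrays moved with the same comparison. The 24 poly-A control probe sets, which read transcripts spiked into the samples, averaged 7.93 and 7.63 in wild-type mock, 7.40 and 7.02 in deficient mock and 7.46 and 7.02 in deficient miR-17 samples. Their mean difference was -0.57 (24 of 24 sets below 0) in deficient mock cells, opposite in direction to most members, and -0.54 (24 of 24) in deficient miR-17 cells against wild type. They were also lower on replicate 2 than on replicate 1 in each group. The 18 hybridization controls, added after labelling, read lower in deficient mock than in wild-type cells by less (-0.17, 18 of 18 sets below 0). They also read lower in deficient miR-17 than in deficient mock samples (-0.12, 18 of 18), where the poly-A controls differed by 0.03. The part of either set of controls in the members' differences was not tested.

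**Figure D3:**
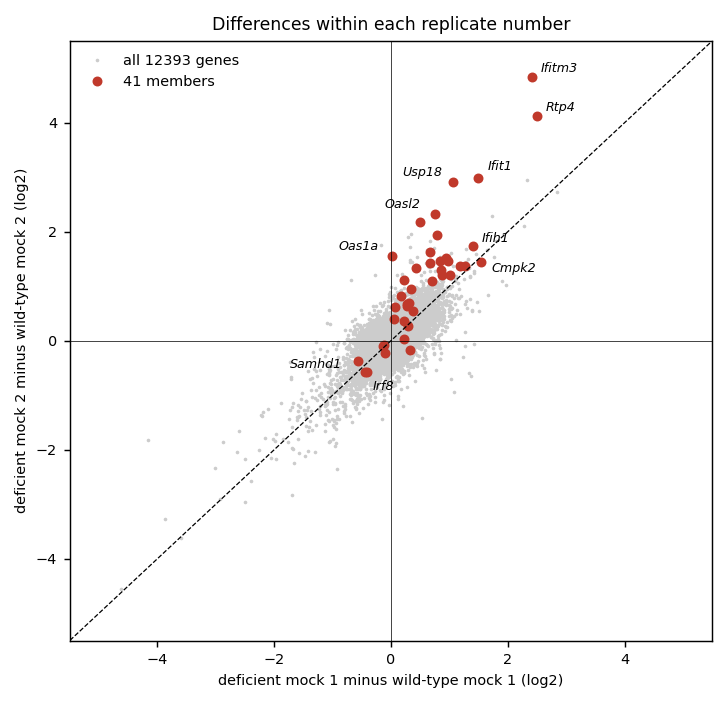
Difference between deficient mock and wild-type cells (log2) in replicate 1 (horizontal) and replicate 2 (vertical) for 41 members (red) over all 12393 genes (grey), with the line of equal differences dashed. Most members lie above the dashed line. Ifitm3 and Rtp4 have the largest differences of the members in each replicate, while Irf8 and Samhd1 lie below 0 in both replicates.

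Returning miR-17 to the deficient cells gave no call in this list in the main fit, which takes no account of the replicate number. By limma's adjusted p, 0 members were higher and 0 lower in deficient miR-17 than in deficient mock cells, and the share called was also 0.0% of all genes in each direction. At an unadjusted p under 0.05, 4 members were lower and 1, Ifi204 at background, was higher, which is 9.76% and 2.44% beside 2.02% and 1.91% of all genes. The median difference was -0.18, with 34 of 41 members below 0, against 0.00 over all genes. It was -0.21 between the replicates 1 and -0.18 between the replicates 2. This median was 0.00 without deficient mock replicate 2 or without deficient miR-17 replicate 1. Each of these fits sets 1 replicate of a group against the mean of both in the other. In both groups most members read higher on replicate 2, so these fits cannot tell whether the direction rests on 1 array. The groups did not overlap for 9 members on the lower side (22.0%, beside 13.9% of all genes) and for 2 on the higher side (4.88%, beside 15.0%).

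Those 4 members with the smallest p were Ifit3, Irf9, Irf7 and Cmpk2. Ifit3 read 5.22 and 5.56 in deficient mock and 4.21 and 4.47 in deficient miR-17 cells, close to or below its wild-type readings of 4.52 and 4.47. Its difference was -1.05 ± 0.17 (limma adjusted p = 0.428, unadjusted p = 0.000267). Irf9 read 8.56 and 8.49 in deficient mock and 7.89 and 7.996 in deficient miR-17 cells, below both wild-type arrays (-0.58 ± 0.10, limma adjusted p = 0.466, unadjusted p = 0.000527). Irf7 differed by -0.68 ± 0.28 and Cmpk2 by -0.64 ± 0.25 (limma adjusted p = 1 for both). In each of the 4 genes both deficient miR-17 arrays lay below both deficient mock arrays. With a term for the replicate number added to the fit, Ifit3 and Irf9 were called lower (limma adjusted p = 0.0377 and 0.0435). In that fit 0.186% of all genes were called lower, and the labels do not say what a replicate number marks.

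Several other members with large differences in deficient mock cells had close means with both vectors or overlapping readings. Zbp1 had neither, at 8.83 and 8.84 in deficient mock and 8.29 and 8.32 in deficient miR-17 cells (-0.53 ± 0.25). Ifitm3 differed by 0.02 ± 0.71, Ifi27l2a by -0.03 ± 0.15 and Ifih1 by 0.10 ± 0.27. Ifit1 (-0.82 ± 0.42) and Rtp4 (-0.77 ± 0.43) had lower means with miR-17, but their arrays overlapped. Ifitm2 had the largest difference above 0 (0.52 ± 0.38). None of these passed (limma adjusted p = 1), which does not show that the levels were alike: the Ifitm3 difference ran from -1.01 to 1.05 when 1 of these 4 arrays was left out.

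**Figure D4:**
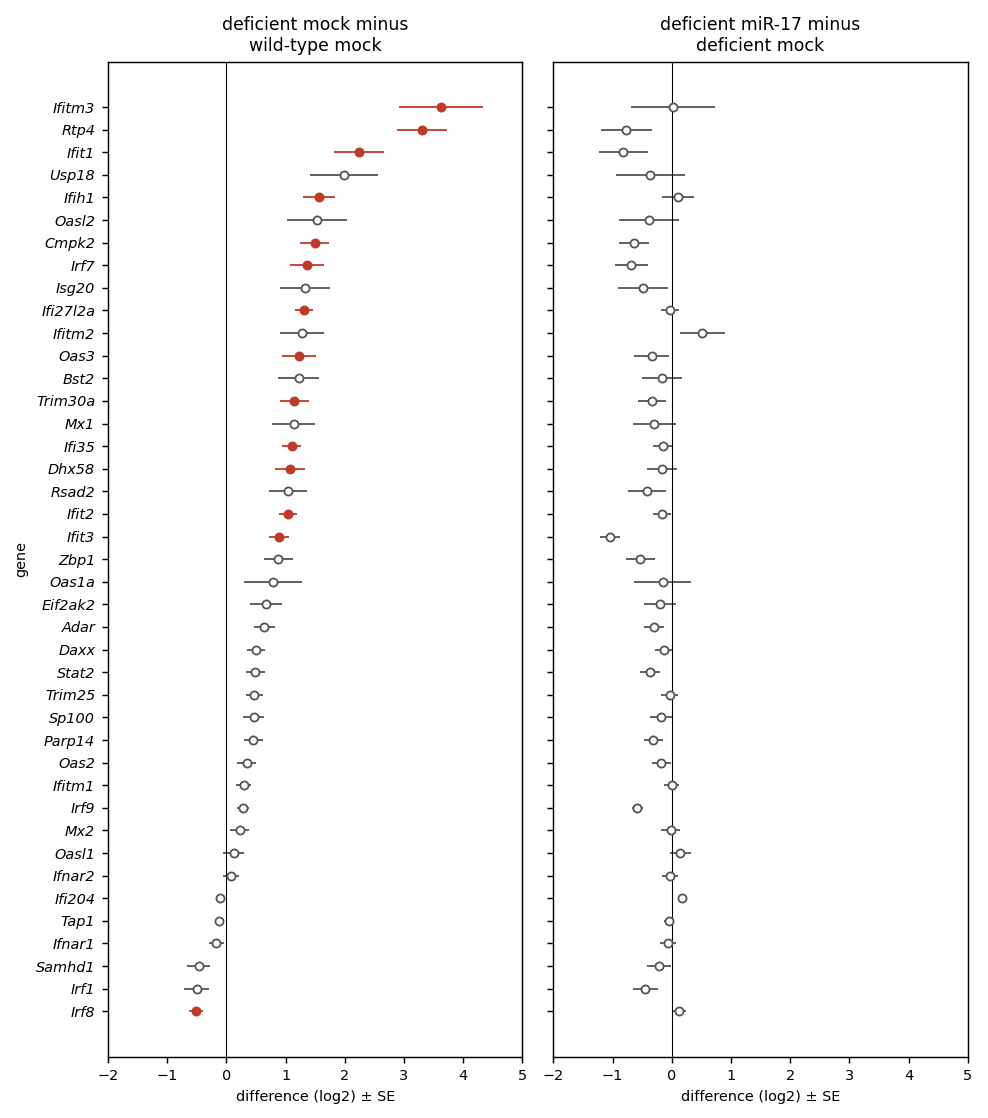
Difference (log2) ± SE of each member for deficient mock minus wild-type mock (left) and deficient miR-17 minus deficient mock (right), ordered by the left panel, with filled red points for limma's adjusted p under 0.05. On the left 13 points are filled above 0 and Irf8 below it, on the right none is filled, and both panels share the deficient mock arrays.

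Deficient miR-17 cells still differed from wild-type mock cells. By limma's adjusted p, 7 members were higher (17.1%, beside 4.03% of all genes) and 1 was lower (2.44%, beside 2.77%), with a median of 0.48 against -0.03 over all genes. This median was 0.19 in replicates 1 and 0.82 in replicates 2, and it ran from 0.27 to 0.78 when 1 array was left out. The groups did not overlap for 26 members on the higher side (63.4%, beside 25.9% of all genes) and for 7 on the lower side (17.1%, beside 24.4%). At limma's unadjusted p under 0.05, 18 were higher (43.9%, beside 14.2%) and 4 lower (9.76%, beside 8.6%). The 7 called higher were Ifitm3 (3.64 ± 0.71, limma adjusted p = 0.0279), Rtp4 (2.54 ± 0.43, limma adjusted p = 0.0189), Ifitm2 (1.79 ± 0.38), Ifih1 (1.67 ± 0.27), Ifi27l2a (1.29 ± 0.15), Ifi35 (0.95 ± 0.16) and Ifit2 (0.88 ± 0.15). Ifih1 read 8.33 and 9.09 with miR-17, against 6.92 and 7.16 in wild-type mock cells. Ifitm2 read 9.63 and 10.26 against 7.74 and 8.56, and Ifi35 8.68 and 8.96 against 7.79 and 7.96. Ifi27l2a read 11.78 and 12.11 with miR-17, and Ifit2 7.52 and 7.72. On the deficient miR-17 arrays replicate 2 read above replicate 1 in each of these 7 genes. Irf1 was the lower gene (-0.94 ± 0.21, limma adjusted p = 0.0405, and 0.0529 with genes on the mean of their probe sets). On those means Rtp4 differed by 1.19 in this comparison. Ifit3, which rose in deficient mock cells, stood at -0.16 ± 0.17 from wild type with miR-17 back (limma adjusted p = 0.639), and Irf7 at 0.68 ± 0.28 (limma adjusted p = 0.200). Of the 13 members called higher in deficient mock cells, the others not called here were Ifit1 (1.43 ± 0.42), Dhx58 (0.90 ± 0.25), Oas3 (0.89 ± 0.29), Cmpk2 (0.86 ± 0.25) and Trim30a (0.81 ± 0.24), with limma adjusted p of 0.0782 to 0.117. Whether these differences were smaller than in deficient mock cells is the test between the vectors above, in which none passed in the main fit. The number called higher was 3 without wild-type mock replicate 1, 4 without wild-type mock replicate 2, 12 without deficient miR-17 replicate 1 and 1, Ifi27l2a, without deficient miR-17 replicate 2. Over all genes the share called higher was below 4.03% in each of these fits. This comparison shares the wild-type arrays with the first and the deficient miR-17 arrays with the second, so agreement among the 3 is partly built in.

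Promoter sequence was examined because many members rose together. RefSeq windows of 300 bases, 250 before to 50 after a transcript start (GRCm38.p6), were at hand for 31 of the 41 members. They were not given for Dhx58, Zbp1, Oas2, Mx1, Mx2, Usp18, Parp14, Ifi204, Rtp4 and Ifi27l2a. The ISRE was searched as GAAA, any 2 bases and GAAA, on both strands. It occurred in a window of 12 of the 31 members (38.7%), against 3.84% of the 9887 genes on the arrays with a window and 3.44% of all 32851 windows. The GAS element, bound by STAT dimers and written here as TTCNNNGAA, the same on both strands, occurred in 13 of the 31 (41.9%) against 8.45% of genes on the arrays. In 2 of the 13 member windows with a GAS match it overlapped an ISRE match. Members were chosen as interferon-induced genes, so their share of ISRE letters describes the list and is no test of these arrays.

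For the members with an ISRE match that were called in any comparison, a stretch of 30 bases around 1 match is shown, 5′ to 3′ on the gene's strand, with the match in capitals. A match in the other direction reads TTTC, any 2 bases and TTTC. For Ifit1 the 250 bases before the start are given whole, as an example of a window with a pair of matches close together. They lie on the plus strand at chr19:34640639-34640888, with matches beginning 104 and 85 bases before the start. The Ifit3 stretch is chr19:34583397-34583426, plus strand, and those of Ifitm3 and Ifitm2 chr7:141010706-141010735 and chr7:140955988-140956017, minus strand. Those of Ifih1, Oas3 and Trim30a are chr2:62646206-62646235, chr5:120777715-120777744 and chr7:104465210-104465239, all on the minus strand.
Ifit1: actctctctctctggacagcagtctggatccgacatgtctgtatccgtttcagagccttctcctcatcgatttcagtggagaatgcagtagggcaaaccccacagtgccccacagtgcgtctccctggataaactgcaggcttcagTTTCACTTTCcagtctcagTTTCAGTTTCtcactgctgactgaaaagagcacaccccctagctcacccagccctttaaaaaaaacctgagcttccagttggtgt
Ifit3: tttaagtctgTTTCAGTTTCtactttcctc
Ifitm3: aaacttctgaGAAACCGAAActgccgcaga
Ifitm2: ccaccaacagGAAAAGGAAAttgctagaga
Ifih1: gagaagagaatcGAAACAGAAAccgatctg
Oas3: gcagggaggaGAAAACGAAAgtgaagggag
Trim30a: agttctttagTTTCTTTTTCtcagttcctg
The Ifitm3 and Ifih1 matches shown begin 19 and 32 bases after the start, and those of Ifit3, Oas3, Ifitm2 and Trim30a begin 122, 75, 46 and 36 bases before it. Not shown are a further Ifit3 match 156 bases before the start, a further Ifitm3 match 2 bases after it, and a Trim30a match 2 bases after the start of its other window.

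Members with and without these letters differed in the first comparison as follows. The 12 members with an ISRE match had a median difference of 1.19 between deficient mock and wild-type cells, and 6 of them were higher by limma's adjusted p. The 19 without it had a median of 0.46, with 4 higher and 1 lower. Among genes that are no members, 3.80% of 368 with a match were called higher and 3.83% of 9488 without, with medians of -0.03 and -0.02. No test was made of the split among members. The 10 members with no window, Rtp4 among them, are in neither group, and the 19 without a match include both receptor genes. Between the vectors, members with and without an ISRE match had medians of -0.26 and -0.16, and 0 were called in either. In deficient miR-17 against wild-type mock cells the medians were 0.85 and 0.30, with 3 of 12 and 2 of 19 higher and 1 of the 19 lower. Among genes that are no members, 2.99% of 368 with a match and 4.22% of 9488 without were called higher in that comparison. Of these, 3.80% and 2.81% were called lower, and the medians were -0.04 and -0.02. For GAS the order among members in the first comparison was the other way, with medians of 0.67 for the 13 with and 0.97 for the 18 without a match. Irf8, Irf1, Samhd1, Ifnar1 and Ifnar2 held a GAS match and no ISRE match in these windows, and so did Ifit2, Ifi35, Isg20 and Adar. Irf7 and Cmpk2, both called higher, held neither.

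Other genes of the pathway came from lists that hold no member. Beside their counts, 3.74% of all genes were called higher and 2.79% lower in deficient mock cells. In deficient miR-17 against wild-type mock cells these shares were 4.03% and 2.77%. Over all genes 44.9% lay above 0 in deficient mock cells. Of 10 measured interferon genes 0 passed in deficient mock cells, 9 lay below 0 (median -0.22), and 3 of them, Ifnb1 among them, were near background on all 6 arrays. Ifng, the interferon that helper T cells themselves secrete, read 5.90 and 5.29 in wild-type mock, 4.87 and 4.34 in deficient mock, and 4.31 and 4.05 in deficient miR-17 cells, and it was lower in the last group by limma (-1.41 ± 0.25, adjusted p = 0.0214). Of 15 receptor, kinase and feedback genes, 1 was lower in deficient mock cells and 0 higher (median -0.13), the lower one being Stat3 (-0.70 ± 0.13, limma adjusted p = 0.0250). In deficient miR-17 against wild-type mock cells 4 of these 15 were lower. The 3 with the smallest p were the kinase gene Jak1 (-0.83 ± 0.12), Stat3 (-0.84 ± 0.13) and the interferon gamma receptor gene Ifngr1 (-1.31 ± 0.27). Ifngr1 already lay below wild type on both deficient mock arrays, without a call (-1.12 ± 0.27, limma adjusted p = 0.0509). Its readings with the 2 vectors overlapped (-0.20 ± 0.27). Jak1 differed by -0.30 ± 0.12 in deficient mock against wild-type mock cells (limma adjusted p = 0.199). Of 10 sensors and adaptors, 1 was lower, Ikbke, a kinase that activates interferon factors (-0.68 ± 0.16, limma adjusted p = 0.0480).

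Among 25 further induced genes, 21 lay above 0 in deficient mock cells (median 0.36), beside 44.9% of all genes. This list too was chosen with earlier results of these data known, so it is no independent check of the members. By limma's adjusted p 0 were lower and 3 higher, beside 2.79% and 3.74% of all genes. These were Ms4a4c, a membrane protein whose probe set can match related genes (2.19 ± 0.13, limma adjusted p = 0.000438), Nmi, the partner of IFI35 (0.81 ± 0.16), and Helz2, a helicase-like coactivator (0.67 ± 0.14). Of 10 antigen processing genes, 6 lay above 0 and 0 passed (median 0.14). With miR-17 back, 4 of the 25 further induced genes lay above their deficient mock level, and 0 passed (median -0.20). Ms4a4c read 9.83 and 9.51 in deficient mock and 8.67 and 8.75 in deficient miR-17 cells, between that level and its wild-type readings of 7.55 and 7.41 (-0.96 ± 0.13, limma adjusted p = 0.428).

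Markers of other cell types were read beside these genes, since some of those cells carry interferon-induced transcripts of their own. Over all genes only 3.74% were called higher and 2.79% lower in deficient mock cells. In lists this short, 0 calls therefore do not show that the cell mixture was alike. The 7 measured genes of plasmacytoid dendritic cells, the main interferon alpha producers, averaged 4.70 to 4.87 in wild-type mock, 4.62 to 4.80 in deficient mock and 4.64 to 4.77 in deficient miR-17 cells, with 0 called. Among them Spib and Klk1 were near background throughout, while Pacsin1 read 6.56 to 7.02 and Cox6a2 5.95 to 6.38, above the array medians. The 7 macrophage and monocyte genes averaged 3.90 to 4.12 with 0 called, and Cd14, Lyz2, Itgam and Fcgr1 were near background on every array. The 7 dendritic cell genes averaged 4.99 to 5.22 with 0 called in deficient mock cells. Itgax was near background on every array, but the class II genes H2-Ab1 (7.89 to 8.84) and Cd74 (6.95 to 7.52) were well above the medians. The 6 B cell genes averaged 5.18 to 5.72, with Pax5 near background and Ighm, at 8.53 to 9.61, lower in deficient mock cells (-1.02 ± 0.10). Of CD8 T cell (2 measured), NK cell (3) and neutrophil genes (5), 0 were called. The arrays averaged 5.0 to 5.4, 4.3 to 4.6 and 4.1 to 4.3 over these lists, and Cd8b1 read 5.42 to 6.21. The 5 regulatory T cell genes averaged 6.17 and 6.10 in wild-type mock, 6.30 and 6.58 in deficient mock, and 6.21 and 6.40 in deficient miR-17 cells, with 0 called. Foxp3 and Ikzf2 were near background throughout, and Il2ra, the gene of CD25, read 9.77 to 10.37. The sort against CD25 came before activation and harvest after 5 days, so the Il2ra reading is not one of the cells as sorted. Gpr83 read 6.53 and 6.52 in wild-type mock, 7.12 and 7.95 in deficient mock and 7.04 and 7.32 in deficient miR-17 cells (1.01 ± 0.25 in the first comparison, limma adjusted p = 0.0550), and Ikzf4 differed by 0.46 ± 0.16. The CD4 T cell genes averaged 10.65 to 10.67 in wild-type mock, 10.39 to 10.49 in deficient mock and 10.32 to 10.40 in deficient miR-17 cells, with Thy1 lower in deficient mock cells (-0.73 ± 0.10) and 0 higher. The part of these shifts in the members' differences was not tested.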

How the data were processed

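The authors deposited log2 intensities from RMA (version not given), as the submitters' processing notes state. RMA subtracts background, quantile-normalizes the arrays and summarises probes on the log2 scale, so a shift shared by most transcripts would not show. The log base was inferred from RMA's usual output and the values' range. The table held 22690 probe sets, 20380 of them with 1 symbol, reduced to 12393 genes by the brightest set. All 6 arrays were fitted in limma 3.58.1 (R 4.3.3; lmFit, contrasts, eBayes with trend; 3 residual and 4.69 prior degrees of freedom), with 3 contrasts and Benjamini-Hochberg adjustment within each. Tested on simulated arrays for deficient mock against wild-type mock, this called 69.8% of changes of 1 log2 unit and 94.9% of changes of 2. The changed genes were drawn from all genes, with independent noise and the same spread in every group. In deficient mock cells the replicates lay further apart in members (median 0.37) than in all genes (0.138). The simulated shares therefore do not carry over to the members. The number of arrays limits the precision.

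Members, gene lists and tests were chosen with earlier results of these data known. Given array by array were members called in any contrast, the 5 largest differences in each, and a fixed set of receptors, regulators and effectors; other members, such as Oas1a, Samhd1 and Zbp1, were named after their values were seen. Pathway lists give up to 3 called genes by p. Sequences are RefSeq's, GRCm38.p6. Figures used matplotlib 3.10.9. Alternatives were the replicate number as a block, each array left out, the mean of probe sets, dim genes left out, other scalings, no intensity trend and the 2 groups alone. Probe sets with several symbols or none were left out.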

Additional observations from a re-analysis of the deposited data

How the results depend on the processing

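In deficient mock against wild-type mock cells, the count of members higher (13) stayed within 1.5 times under every setting tried except the replicate block (28) and leaving out 1 array (1 to 15). The count lower (1) was 3 with the replicate block, 0 without any 1 array, 0 with the arrays centred on their medians, 0 without the intensity trend and 0 with only the 2 groups compared. In deficient miR-17 against deficient mock cells the counts stayed at 0, except for 2 lower, Ifit3 (limma adjusted p = 0.0377) and Irf9 (limma adjusted p = 0.0435), with the replicate block. The median difference there ran from -0.46 to 0.003 without 1 array, turning at 0.003 without deficient mock replicate 2. In deficient miR-17 against wild-type mock cells the count higher (7) was 18 with the replicate block and 1 to 12 without 1 array. The count lower (1) was 4 with the block, 0 with the mean of probe sets, 0 without trend, 2 with the arrays normalized again and 0 to 1 without 1 array.

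The block adds a term for the replicate number. Differences between replicates correlated across genes at 0.429, 0.634 and 0.506 between the groups, and the labels do not say what a number marks. The block changed counts over all genes as well. The share called higher went from 3.74% to 13.4% in the first comparison. Between deficient miR-17 and wild-type mock cells it went from 4.03% to 15.3%. The share of all genes called lower went from 2.79% to 8.57% and from 2.77% to 8.82% in these 2 comparisons. Beside these block shares, 3 and 4 of 41 members were called lower, so those counts set the members apart in neither. Leaving out any 1 array lowered the share of all genes called higher in both of these comparisons. With dim genes left out, 33 members remained and the shares of all genes kept rose. In the first comparison 10 of the 33 were called higher, beside 9.06%. Between deficient miR-17 and wild-type mock cells 7 of the 33 were called higher, beside 9.83%. Centring moved the median of all genes by less than 0.1. Near-background readings limit Oasl2, Ifi204 and the wild-type levels of Ifit1 and Cmpk2. For the members given array by array, the alternatives left 258 values on their side of the threshold in the first comparison, 50 lost a call and 14 gained one. With miR-17 against deficient mock 320 kept their side and 2 gained a call, and against wild-type mock 286 kept it, 20 lost and 16 gained one. In 0 cases did a called member change sign.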
